A study of Capra hircus with 6 samples.

Results

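The BCL2 family decides whether the outer membrane of the mitochondrion stays intact. Its pro-survival proteins hold the effectors BAX and BAK1 in check, the BH3-only proteins release or switch on the effectors, and effectors that assemble in the membrane let cytochrome c out, which starts the caspase cascade. In the hair follicle, dermal papilla cells carry BCL2, and the study asked how all-trans retinoic acid (ATRA), the vitamin A metabolite that binds retinoic acid receptors, affects survival of these cells. Here 10 genes of the family were followed in RNA-seq counts. They are the pro-survival genes BCL2, BCL2L1 and MCL1, the effector genes BAX and BAK1, and the BH3-only genes BCL2L11, BBC3, PMAIP1, BMF and BID, taken by symbol from the 15944 genes in the deposited table. Each symbol matched 1 row, and all 10 were among the 12588 genes that passed the filter on low counts.

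The Control group held 3 libraries of wild-type primary secondary hair follicle dermal papilla cells of Capra hircus grown without ATRA, and the ATRA group held 3 libraries of the same kind of cells given ATRA at 100 µM for 24 h. By the study's methods, the goats were 3 years old, cells of passages 4 to 7 in medium with 10% serum were used, and the RNA-seq cells came from 3 animals. The labels place all 6 libraries in 1 batch and do not say which animal gave which library, so the spread between libraries may mix animals and cultures. Cultured cells at a single dose and time lack the epithelium they face in the follicle.

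Libraries held 35532339 to 38012771 counts, and no pair of libraries in a group agreed within sampling noise (chi-square of 5.01 to 18.4 for each degree of freedom). Levels are given as CPM, a gene's counts scaled to a library of fixed size, with TMM factors that set the middle of the gene distribution level between libraries. TMM factors were 0.842 to 0.851 in Control and 1.16 to 1.20 in ATRA, so the 2 groups were scaled far apart, and this bears on every small difference below. Of 14 dermal papilla markers, 10 were tested and all 10 were lower with ATRA, and their summed level went from between 84300 and 86000 CPM in Control to between 4250 and 4570 CPM in ATRA. COL1A1, COL1A2 and VIM, at mean levels of 27400, 28500 and 19200 CPM in Control, made up most of this sum. LEF1 and FGF7 moved least, from means of 16.1 to 11.1 and of 25.7 to 21.9 CPM. Of the markers not tested, PROM1, ALPL and CORIN had at most 1 count in any library. SOX2, also not tested, had 5, 0 and 2 counts in Control and 10, 16 and 9 in ATRA. PROM1 encodes CD133, which the study stained for as protein, and counts of mRNA do not measure that stain. The study's other stained marker, α-SMA, is encoded by ACTA2, whose mean went from 6580 CPM in Control to 8.37 CPM in ATRA. Summed markers of other cells lay at 3.18 to 5.01 CPM in Control and 5.37 to 5.97 in ATRA for keratinocytes (1 of 1 tested higher), at 0.903 to 1.24 and 6.19 to 9.16 for endothelium (2 of 3 tested higher), at 9.58 to 13.2 and 41.6 to 44.4 for leukocytes (2 of 3 higher), at 16.1 to 17.6 and 32.2 to 39.0 for melanocytes (1 higher and 1 lower of 2), and at 516 to 537 and 16.6 to 18.5 for muscle and pericytes (3 of 4 lower). Among the defining markers, PTPRC, MLANA, TYR, DCT, SOX10, KRT1, DSG3 and CLDN5 matched no row here, and CDH5 had at most 1 count. The tested keratinocyte gene was KRT10. KRT14 went from 20, 14 and 10 counts in Control to 3, 0 and 0 in ATRA. KRT5 had 2, 7 and 3 counts in Control and 0 in each ATRA library. For endothelium, PECAM1 went from 0 counts in each Control library to 242, 340 and 206 in ATRA. TEK was also higher and VWF did not pass, while KDR, not tested, went from 5, 6 and 10 counts to 2, 1 and 0. The part of these shifts in the results below was not tested, and in such bulk libraries fewer cells of a type and less RNA per cell cannot be told apart.

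ATRA shifted the transcripts of the family unevenly. The BH3-only genes BCL2L11, BMF and BBC3 rose by 14.0-fold, 4.24-fold and 3.00-fold, the pro-survival gene BCL2 fell by 5.15-fold, and the other 6 genes moved by less than 1.5-fold in either direction under TMM scaling. By edgeR's quasi-likelihood test with Benjamini-Hochberg adjustment over all genes tested, 8 of the 10 genes had an adjusted p under 0.05, against 79.7% of all genes tested. Of these, 4 were higher and 4 lower with ATRA, against 40.9% and 38.7% of all genes. With library size alone as the scaling, the split became 8 higher and 1 lower, while that of all genes went to 62.9% and 22.7%. A change past 2-fold was found for 4 of the 10 genes (31.0% of all genes), of which 3 were higher (13.7% of all genes) and 1 was lower (17.3%). The share of members past the test was close to that of all genes, so this count says nothing particular about the family.

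**Figure D1:**
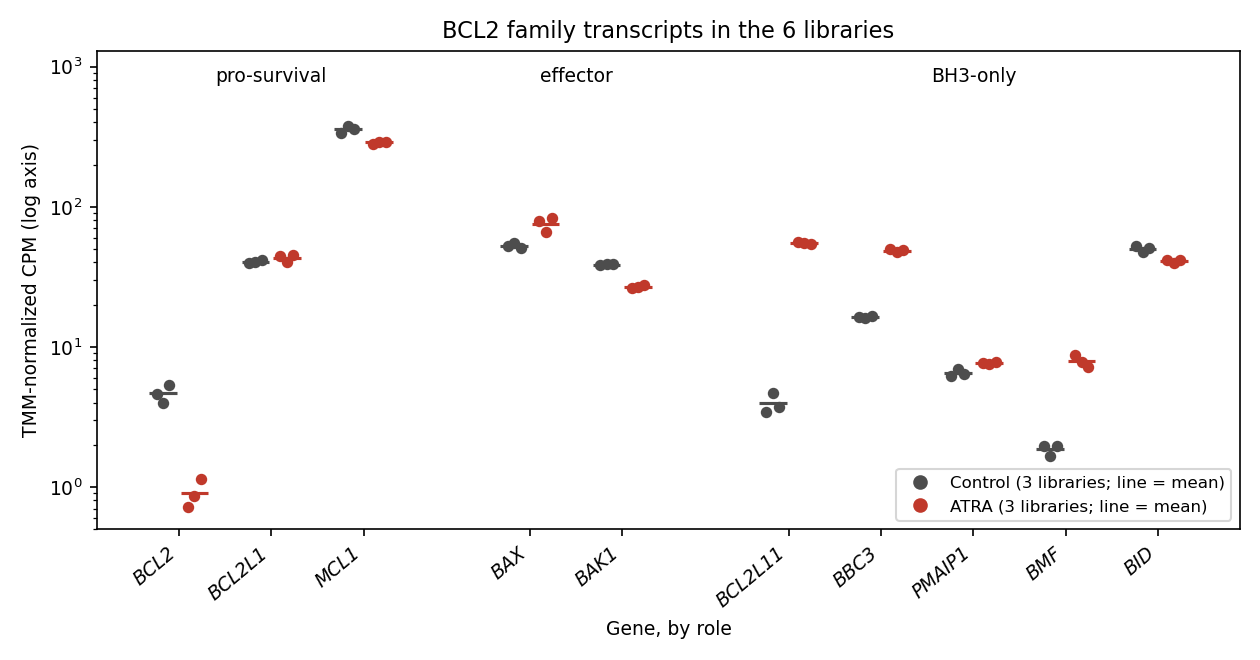
Normalized CPM on a log axis for each of the 10 genes in the 3 Control and 3 ATRA libraries, grouped by role, where points are libraries and lines are group means. BCL2L11 stands between 3.41 and 4.67 CPM in Control and between 54.3 and 56.0 CPM in ATRA, while BCL2 goes from between 3.99 and 5.35 to between 0.717 and 1.14 CPM, and the points of BCL2L1 overlap.

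BCL2, the founding member of the family, encodes a protein of the mitochondrial and endoplasmic reticulum membranes that binds BH3-only proteins and effectors. It was covered by few reads, with 144, 129 and 172 counts in the Control libraries and 31, 38 and 47 in the ATRA libraries. As CPM these were 4.64, 3.99 and 5.35 in Control and 0.717, 0.862 and 1.14 in ATRA. Every ATRA library lay below every Control library. The mean went from 4.66 ± 0.684 CPM (SD, n = 3) to 0.905 ± 0.213 CPM (SD, n = 3), a log2 fold change (log2FC, ATRA minus Control) of -2.36 (standard error 0.211, adjusted p = 7.68e-09). Its relative spread was the widest of the 10 genes in ATRA, with an SD of 23.5% of the mean. Among all genes tested BCL2 ranked at 846, counted from the lowest log2FC.

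The other pro-survival genes moved little. BCL2L1 encodes BCL-XL, which guards the mitochondrial membrane beside BCL2. Its levels were 39.6, 40.2 and 41.9 CPM in Control and 44.8, 40.6 and 44.9 CPM in ATRA, so that ATRA replicate 2 lay inside the Control range. The log2FC of 0.10 did not pass the test (standard error 0.0695, adjusted p = 0.197), and its 95% interval ran from -0.05 to 0.25, which does not reach a 2-fold change. BCL2L1 passed with upper-quartile scaling (log2FC 0.18, adjusted p = 0.0266) and with library size alone (0.58, adjusted p = 7.52e-07).

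MCL1 encodes a short-lived pro-survival protein that is turned over by the proteasome. It gathered the most reads of the 10 genes, 10522 to 12301 counts per Control library and 12079 to 12846 per ATRA library. Its CPM was 339, 380 and 362 in Control and 282, 291 and 292 in ATRA, with all ATRA libraries below all Control libraries. Under TMM scaling MCL1 fell, with a log2FC of -0.32 (standard error 0.0575, adjusted p = 5.39e-05), whereas with library size alone its log2FC was 0.16 (adjusted p = 0.0189).

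The effectors went opposite ways under TMM scaling. BAX, which moves from the cytosol to the mitochondrion and forms the pore there, had 52.1, 54.9 and 51.0 CPM in Control and 78.6, 66.2 and 82.8 CPM in ATRA. The groups did not overlap, although ATRA replicate 2 stood below the other ATRA libraries. The mean rose from 52.7 ± 2.03 to 75.9 ± 8.66 CPM (SD, n = 3 each), a log2FC of 0.53 (standard error 0.0772, adjusted p = 5.62e-06). With library size alone the log2FC of BAX was 1.00, just past the 2-fold threshold.

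BAK1 encodes the effector that resides in the outer membrane. It had 38.4, 38.7 and 38.9 CPM in Control, the tightest values among the 10 genes, and 26.2, 26.7 and 27.5 CPM in ATRA, again without overlap. Under TMM scaling it fell, with a log2FC of -0.53 (standard error 0.0692, adjusted p = 1.41e-06). The raw counts were 1191 to 1251 in Control and 1132 to 1178 in ATRA, so with library size alone its log2FC was -0.05 and did not pass (adjusted p = 0.504).

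BCL2L11 encodes BIM, a BH3-only protein that binds every pro-survival member and can switch on BAX and BAK1. It had 106, 151 and 120 counts in the Control libraries and 2422, 2433 and 2249 in the ATRA libraries. In CPM this was 3.41, 4.67 and 3.74 against 56.0, 55.2 and 54.3. The lowest ATRA library lay more than 10-fold above the highest Control library. The mean rose from 3.94 ± 0.651 to 55.2 ± 0.843 CPM (SD, n = 3 each), with a log2FC of 3.81 (standard error 0.100, adjusted p = 8.73e-17). By log2FC BCL2L11 ranked at 210 among the 12588 genes tested, counted from the highest. Leaving out each library in turn kept its log2FC between 3.71 and 3.94.

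BMF encodes a BH3-only protein that is tied to the myosin motor through a dynein light chain and is known from anoikis, the death of detached cells. It was the least covered gene in Control, with 61, 54 and 63 counts, and had 377, 346 and 297 counts in ATRA. The CPM values were 1.97, 1.67 and 1.96 in Control and 8.72, 7.84 and 7.18 in ATRA. No ATRA library came near the Control range. The log2FC was 2.08 (standard error 0.151, adjusted p = 3.75e-10).

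BBC3 encodes PUMA, a BH3-only protein best known as a target of p53. Its levels were close together within each group, at 16.2, 16.0 and 16.6 CPM in Control and 50.1, 47.3 and 48.8 CPM in ATRA. The mean rose from 16.3 ± 0.299 to 48.7 ± 1.36 CPM (SD, n = 3 each), a log2FC of 1.58 (standard error 0.0724, adjusted p = 3.69e-13). BBC3, BMF and BCL2L11 kept their direction and their place past 2-fold under every scaling, filter, tool and left-out library tried.

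PMAIP1 and BID did not follow those 3 BH3-only genes. PMAIP1 encodes NOXA, a BH3-only protein that chiefly neutralises MCL1. It had 6.15, 6.89 and 6.44 CPM in Control and 7.68, 7.48 and 7.81 CPM in ATRA. The groups were apart, yet the log2FC of 0.24 missed the threshold (standard error 0.114, adjusted p = 0.0658, 95% interval from -0.004 to 0.48). It passed with upper-quartile scaling (log2FC 0.31) and with library size alone (0.71).

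BID encodes the BH3-only protein that caspase-8 cleaves, which links death receptors to mitochondria. Its levels were 52.2, 47.6 and 50.4 CPM in Control and 41.9, 39.9 and 41.8 CPM in ATRA, with no overlap. Under TMM scaling BID fell, with a log2FC of -0.28 (standard error 0.0669, adjusted p = 0.000914), whereas with library size alone its log2FC was 0.20 (adjusted p = 0.00979).

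Across the 10 genes, 9 had all ATRA libraries on one side of all Control libraries, against 80.1% of all genes tested. Of the 9, 5 were on the higher side and 4 on the lower, against 41.2% and 39.0% of all genes. The gene with overlap was BCL2L1. Because a change of scaling moves all genes by nearly the same amount, the members were also set against the median of all genes tested, whose log2FC was 0.04 under TMM and 0.52 with library size alone. Relative to this median, MCL1 lay at -0.36, BID at -0.32 and BAK1 at -0.57 under both scalings, while BCL2L1 lay at 0.06, PMAIP1 at 0.20 and BAX at 0.49. BCL2L11 lay 3.77 above the median and BCL2 2.40 below it, so that both were far from the bulk of genes, whose middle 50% ran from -0.61 to 0.57 under TMM.

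**Figure D2:**
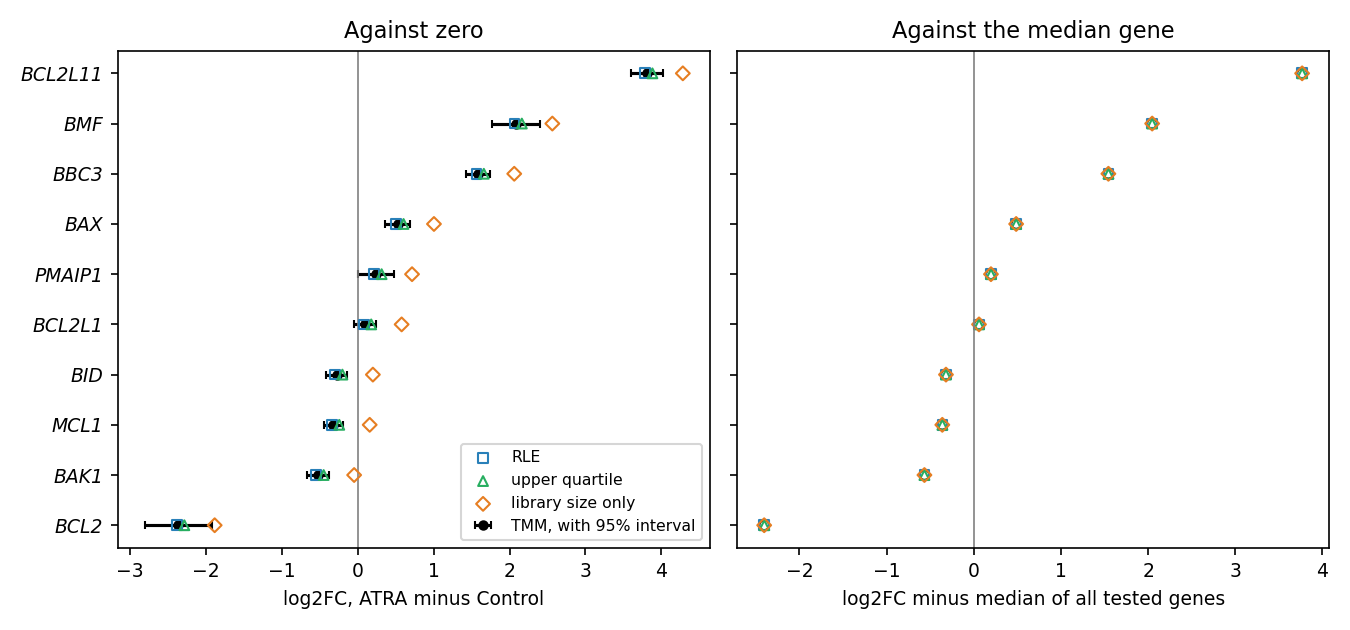
Log2FC (ATRA minus Control) of the 10 genes under 4 scalings, against zero (left, with 95% intervals for TMM) and against the median of all tested genes (right). The signs of MCL1 and BID differ between TMM (-0.32 and -0.28) and library size only (0.16 and 0.20), BAK1 comes close to zero at -0.05, and the order of the genes is the same in both panels.

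Ratios of counts between members of the family inside a library need no scaling, and they are given as descriptions without a test. A ratio of counts depends on the lengths of both transcripts, which were not used here, so only its shift between groups can be read. BAX over BCL2, the pair that the study followed as protein, was 11.2, 13.8 and 9.53 in the Control libraries and 110, 76.8 and 72.9 in the ATRA libraries. The lowest ATRA ratio was above the highest Control ratio by a wide margin, and the mean ratio was 7.51-fold higher with ATRA. Most of this came from BCL2, since the log2 shift of the ratio was 2.90 and the BCL2 log2FC alone was -2.36.

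BCL2L11 shifted further against each pro-survival gene. Its ratio to BCL2 was 0.736, 1.17 and 0.698 in Control and 78.1, 64.0 and 47.9 in ATRA, 73.0-fold higher as a ratio of the means. Its ratio to BCL2L1 was 0.0862, 0.116 and 0.0892 in Control and 1.25, 1.36 and 1.21 in ATRA, a 13.1-fold difference. Against MCL1 the ratio went from 0.0101, 0.0123 and 0.0103 to 0.198, 0.189 and 0.186, a 17.6-fold difference. In none of these ratios did the groups overlap.

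Other ratios also separated the groups, and those with BBC3 or BCL2 include a member that moved past 2-fold. MCL1 over BCL2L1 was 8.56, 9.47 and 8.65 in Control and 6.30, 7.17 and 6.50 in ATRA, so that the highest ATRA ratio was below the lowest Control ratio. BAX over BAK1 was 1.36 ± 0.0544 and 2.83 ± 0.304 (SD, n = 3 each), so the balance of the 2 effector transcripts moved toward BAX by 2.07-fold whatever the scaling. BBC3 over MCL1 was 0.0452 ± 0.00285 and 0.169 ± 0.00759 (SD, n = 3 each), a 3.74-fold difference. BCL2L1 over BCL2 was 8.81 ± 1.15 in Control and 49.7 ± 11.7 in ATRA (SD, n = 3 each).

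**Figure D3:**
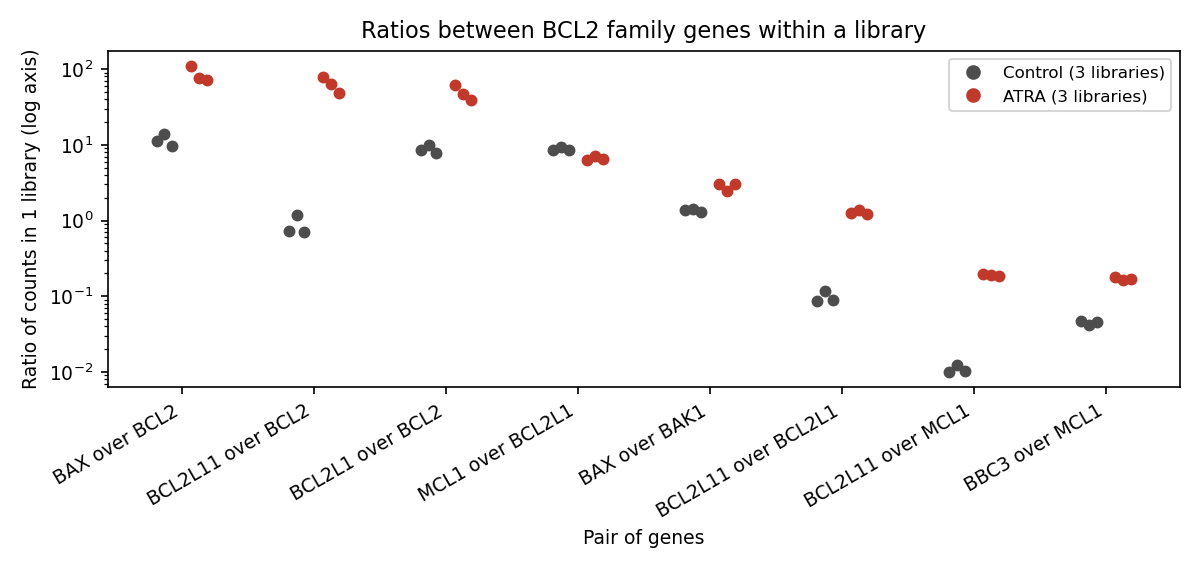
Ratio of the counts of 2 family genes inside each library, on a log axis, for 8 pairs, where each point is 1 of the 3 Control or 3 ATRA libraries. BCL2L11 over BCL2 has the widest gap between groups (0.698 to 1.17 against 47.9 to 78.1), and MCL1 over BCL2L1 is the pair that is lower with ATRA.

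Together the 10 genes took 0.0466% to 0.0506% of all counts in the Control libraries and 0.0698% to 0.0708% in the ATRA libraries. Within these reads, the pro-survival genes held 70.5% ± 1.10 in Control and 55.8% ± 1.09 in ATRA (SD, n = 3 each). The share of the BH3-only genes went from 13.7% ± 0.757 (SD, n = 3) to between 26.3% and 27.5% in the 3 ATRA libraries. The shares in a library add up to a fixed whole, so more reads for 1 role lower the shares of the others. MCL1, which held most of the pro-survival reads, had 10522 to 12301 counts in Control and 12079 to 12846 in ATRA. The shares cover the 10 genes only. BCL2L2, a pro-survival gene outside them, had 2001 to 2196 counts per Control library and 3646 to 3893 per ATRA library. Also outside them, BOK and BAD were lower under TMM scaling. Effector genes held 15.9% ± 0.417 and 17.2% ± 1.15 (SD, n = 3 each), a difference close to the spread between libraries. By gene, the share of MCL1 went from 62.6% to 48.4%, that of BCL2L11 from 0.682% to 9.26% and that of BBC3 from 2.83% to 8.17%. BCL2L1 held 7.05% ± 0.259 and 7.28% ± 0.285 (SD, n = 3 each). The shares count reads, and longer transcripts give more reads, so they do not rank the genes by the number of molecules.

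The annotation deposited with the counts places 9 of the 10 genes in the KEGG apoptosis pathway, all but BMF. It places BCL2, BCL2L1, BAX, BBC3, PMAIP1 and BID in the p53 signaling pathway, and of these 6 genes BBC3 and BAX rose, BCL2 fell, BID fell under TMM scaling but was higher with library size alone, and BCL2L1 and PMAIP1 had the log2FC of 0.10 and 0.24 given above. BCL2L11 is the member annotated to the FoxO signaling pathway. The 5 members annotated to microRNAs in cancer, BCL2, MCL1, BAK1, BCL2L11 and BMF, include the lowest and the highest log2FC of the family.

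Other genes of the family were taken from a list of 13, of which 10 matched a row and 8 passed the filter. Of the 8, 4 were higher and 4 lower (6 and 1 with library size alone), with a median log2FC of 0.09 against 0.04 for all genes tested. Of all genes tested, 40.9% were higher and 38.7% lower, or 62.9% and 22.7% with library size alone. BNIP3, a BH3-like receptor for mitophagy, rose from 51.1 ± 1.64 to 460 ± 12.3 CPM (SD, n = 3 each, log2FC 3.17, adjusted p = 7.24e-19), and its relative BNIP3L rose with a log2FC of 1.01. The pro-survival gene BCL2L2, listed under a LOC identifier with this symbol beside it, had a log2FC of 0.39 (adjusted p = 1.06e-05). BOK, a relative of BAX and BAK1, fell (log2FC -1.69, adjusted p = 6.08e-10). BAD and BCL2L13 were lower under TMM (-0.39 and -0.34) and at 0.09 and 0.14 with library size alone. BCL2L15, singled out after its values were seen, had 3 to 7 counts per Control library and 64 to 78 per ATRA library. BCL2L10 and HRK had at most 4 counts in any library and were not tested, and BCL2A1, BIK and BCL2L14 matched no row here.

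Among 13 genes whose products are known to control transcription of BH3-only genes or to act beside those that do, 12 were tested, 6 were higher and 6 lower (7 and 4 with library size alone), and the median log2FC was 0.05. The shares of all genes higher and lower were 40.9% and 38.7%, or 62.9% and 22.7% with library size alone. DDIT3, which encodes CHOP, rose (log2FC 1.69), as did TRIB3 (1.81) and FOXO4 (1.41), each with an adjusted p of at most 1.09e-11. E2F1 (-2.90), CREB3L1 (-2.25) and JUN (-1.60) fell. These 6 genes kept their direction with library size alone. TP63 had at most 1 count and was not tested.

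Genes whose products modify, bind or cleave BCL2 family proteins numbered 19, of which 17 were tested, with 5 higher, 7 lower and 5 not past the test (13 higher and 2 lower with library size alone), a median log2FC of 0.03, and none past 2-fold (4 past it with library size alone). For all genes the shares were 40.9% higher and 38.7% lower (62.9% and 22.7% with library size alone), and 31.0% were past 2-fold under TMM. The share of all genes past 2-fold with library size alone is not given here, so nothing is read from the 4 genes past it. TRAF2 (0.90), TPT1 (0.89) and BTRC (0.66) were higher. DYNLL1 (log2FC -0.67), a dynein light chain that binds BIM, and AKT1 (-0.64) fell. USP9X, a deubiquitinase of MCL1, fell under TMM (-0.53), while with library size alone it did not pass (-0.05, adjusted p = 0.430). TRIM17 was not tested, at 9 counts or fewer per library, and MARCHF5 matched no row.

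Downstream of the family, a list of 12 genes gave 6 higher and 2 lower (10 and 1 with library size alone), with a median log2FC of 0.13. Apart from SPNS1, it held genes of the outer membrane and of the proteins released through it. Beside this list and the next, 40.9% of all genes were higher and 38.7% lower, or 62.9% and 22.7% with library size alone. HTRA2, a released protease, rose (log2FC 1.11), as did SPNS1 (0.64) and ENDOG (0.60), while TOMM22 (-0.65) fell. VDAC1, the channel of the membrane, was at -0.37 under TMM and 0.10 with library size alone. Of 11 caspase, inhibitor and nuclease genes 2 were higher and 5 lower (6 and 2 with library size alone), with a median of -0.14. BIRC3 (log2FC 0.81) rose, while BIRC5 (-5.01), an inhibitor gene expressed in dividing cells, fell. CASP9, the initiator caspase of the apoptosome, was at -0.68 under TMM and -0.20 with library size alone (adjusted p = 0.124).

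**Figure D4:**
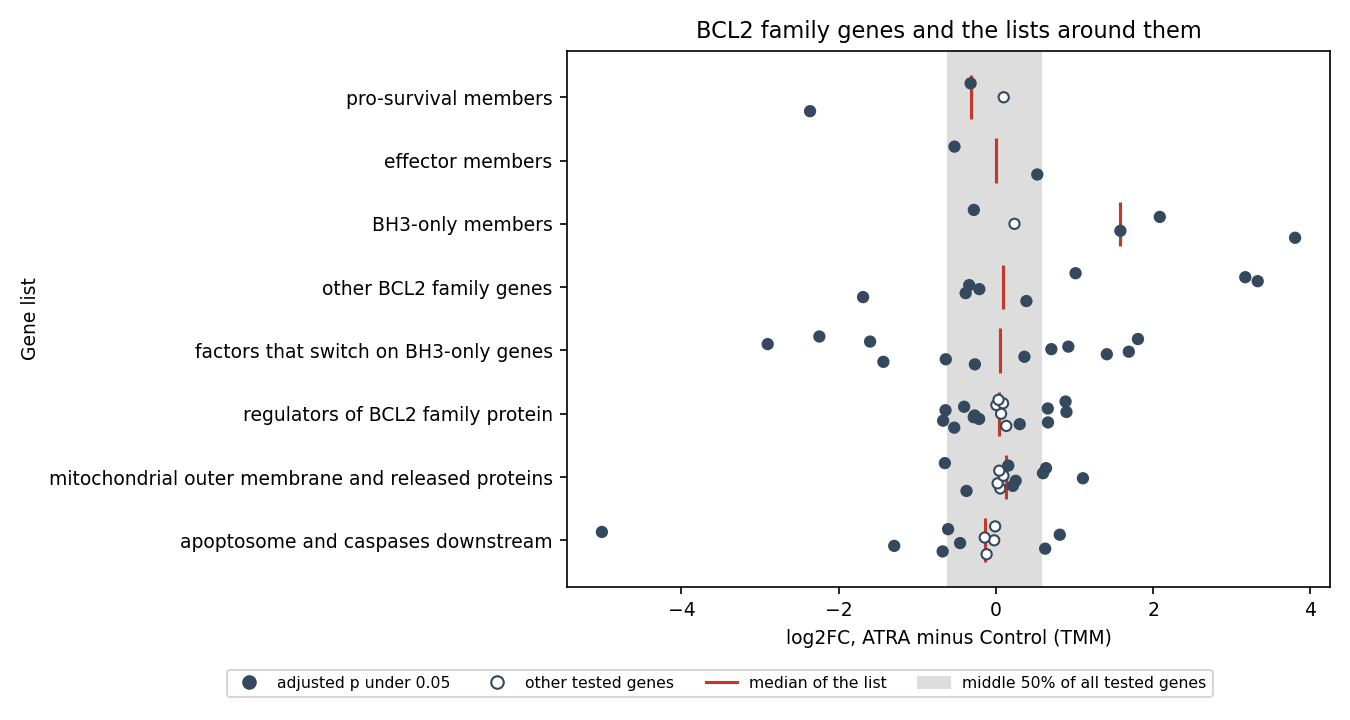
Log2FC under TMM for the tested genes of each list, filled where the adjusted p was under 0.05, with the median of each list as a red line and the middle 50% of all tested genes (-0.61 to 0.57) in grey. BCL2L11, BMF and BBC3 lie to the right of the grey band and BCL2 to its left, and the medians of the 5 lists outside the 10 genes lie between -0.14 and 0.13. With library size only these medians lie between 0.34 and 0.61, where the median of all tested genes is 0.52.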

How the data were processed

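RNA-seq of 3 Control and 3 ATRA libraries was used. Reads from oligo(dT)-selected mRNA were cleaned by the authors with fastp and TrimGalore, and the submitters' processing notes name HISAT2, featureCounts and DESeq2 without versions. The genome build, annotation and strand setting are not given in the sources used here. The authors deposited raw counts per gene, with 0 per-sample columns left unused here. The filterByExpr function of edgeR removed genes with low counts, and the rest were scaled by TMM and tested with the quasi-likelihood test (robust, two-sided, no covariate) in edgeR 4.0.16 under R 4.3.3. The Benjamini-Hochberg adjustment covered 12588 genes. The call threshold was 0.05, with an absolute log2FC over 1 for changes past 2-fold. The t.test that the study's methods name was kept as an alternative, since a count model suits whole reads. CPM uses the tested counts times the TMM factor as library size. A prior count of 0.125 entered the log2FC, whose standard error is the absolute log2FC over the square root of F.

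The 10 members and all lists were chosen with earlier results of these data known. Of each list outside the members, the text names the 3 genes or fewer with the largest absolute log2FC on the higher and on the lower side, among those with an adjusted p under 0.05, groups apart and a mean of at least 1 CPM. Untested genes were named as well. Some genes that this rule would name are not reported here. List symbols were matched by row identifier, then by the deposited symbol, then by RefSeq synonyms. No sequences or coordinates were used, and no transcript lengths, so levels are not compared between genes. The script was tested on simulated data in which 200 of 12588 genes changed, as many higher as lower. That test cannot show how the script handles groups scaled as far apart as these. DESeq2 was version 1.42.0, and figures were drawn with matplotlib 3.10.9. Errors cover the spread between these libraries only.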

Additional observations from a re-analysis of the deposited data

How the results depend on the processing

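Results were recomputed with DESeq2, with t.test on log2(CPM + 1) without TMM, with RLE, upper-quartile or no scaling beyond library size, 2 other filters, a prior count of 2, an unadjusted p, a block for the replicate number, and without each library in turn. Groups apart under RLE, under upper-quartile scaling and without each library were added after seeing the data. The number of members higher and lower, 4 and 4, became 8 and 1 with library size only and 7 and 1 with t.test, which shares that scaling. MCL1 then reversed to 0.16 and 0.16 and BID to 0.20 and 0.19, where MCL1 did not pass with t.test (adjusted p = 0.0987), and BAK1 was at -0.05 in both and lost its call. BCL2L1 (0.18, 0.58 and 0.56) and PMAIP1 (0.31, 0.71 and 0.63) passed with upper-quartile scaling, library size only and t.test. Upper-quartile scaling gave 6 higher and 4 lower, against 44.8% and 35.8% of all genes. With library size only the shares of all genes were 62.9% and 22.7%. DESeq2, RLE, both filters, the prior count and the fits without each library gave 4 higher and 4 lower, and without each library 9 or 10 members had groups apart. Groups apart are easier to reach with fewer libraries. Apart from the scalings, shares of all genes are not given here for these alternatives, t.test included. The unadjusted p was applied to changes past 2-fold, with 3 higher and 1 lower as before. Over the 15 alternatives the log2FC ranged from -2.56 to -1.26 for BCL2, 0.45 to 1.00 for BAX, 3.71 to 4.28 for BCL2L11, 1.56 to 2.06 for BBC3 and 2.001 to 2.563 for BMF, all past the test. The -1.26 of BCL2 came from t.test on log2(CPM + 1), while edgeR with library size only gave -1.89. The added 1 CPM is close to the level of BCL2 in ATRA and shrinks its log2FC. The replicate numbers gave no sign of pairing: deviations from the group means correlated at 0.09, 0.03 and -0.08 between libraries of the same number, and 3 of 6 libraries correlated best with their own number. The replicate block left 4 members higher and 4 lower. The low counts of BCL2 with ATRA limit the precision of its fold.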

Other observations

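The KEGG apoptosis pathway, a list taken from the deposited annotation after the results were seen, had 122 tested genes. Of these 39 were higher, 58 lower and 25 did not pass, with a median log2FC of -0.11, and with library size only the counts were 71 and 35. Of all genes tested, 40.9% were higher and 38.7% lower, or 62.9% and 22.7% with library size only. BCL2L11 had the highest log2FC of the 122 genes (3.81) and BIRC5 the lowest (-5.01). Between them, PIK3CB (2.63), EIF2AK3, the endoplasmic reticulum stress kinase PERK (2.03), and FAS, a death receptor (1.04), were also past 2-fold on the higher side. On the lower side stood the lamin genes LMNB1 (-3.36) and LMNA (-2.97), the actin genes ACTG1 (-3.01) and ACTB (-2.69), whose near-identical reads make their separate values uncertain, and GADD45B (-2.56). These genes were named after their values were seen.

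The KEGG mitophagy pathway, which holds BCL2L1 as well as BNIP3 and BNIP3L, was also taken from the annotation after the results were seen. It had 31 genes higher and 16 lower of 62 tested, with a median log2FC of 0.33 (53 and 8 with library size only, with a median of 0.81). Under TMM the p53 signaling pathway had 21 higher and 37 lower of 71 tested (median -0.27). The FoxO signaling pathway had 43 and 45 of 106 (median -0.03), and the apoptosis pathway for multiple species had 9 and 11 of 29 (median -0.11). The shares of all genes given above, 40.9% higher and 38.7% lower or 62.9% and 22.7%, apply here too, and the median of all genes was 0.04, or 0.52 with library size only.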
